A study of Mus musculus with 14 samples.

Results

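The genes described here are the translation initiation factors (eIF) and elongation factors (eEF) measured in hippocampal parvalbumin (PV) neurons after chronic social defeat stress (CSDS). They were chosen by symbol alone, as the protein-coding genes of the count table whose mouse name begins with Eif and a digit from 1 to 6 or with Eef and 1 or 2. The rule found 67 of the 39017 genes in the table, and 66 of the 67 passed the filter on low counts that left 21298 genes for testing. The remaining gene, Eif4e1b, an eIF4E relative known from the germ line, had at most 1 count in any library. All animals were male mice on a C57BL/6 background that carried PV-Cre and a Cre-dependent EGFP-L10a transgene, in which the promoter of the PV gene drives Cre and Cre turns on a ribosomal protein tagged with green fluorescent protein. The animals were young adults from in vitro fertilization, and both hippocampi of 1 mouse made up each immunoprecipitate. In translating ribosome affinity purification (TRAP), tagged ribosomes are pulled down from the homogenate with the mRNA they hold. TRAP RNA came from 4 non-defeated control mice (libraries C1, C6, C9 and C11), 4 resilient mice (R3, R5, R7 and R8) and 3 susceptible mice (S2, S4 and S10). Resilient and susceptible mice had been attacked daily by larger CD-1 aggressors, then sorted by how much they avoided a new aggressor in a social interaction test. Controls were housed in pairs without contact with aggressors during the days of defeat. The input was total RNA of 3 homogenates (CI12, CI13 and CI14), also from non-defeated mice. The labels describe the inputs, too, as translating RNA.

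Initiation factors bring the initiator tRNA, the mRNA and the ribosomal subunits together at a start codon, and elongation factors then feed in aminoacyl-tRNAs and move the ribosome along. The pathway is controlled mainly at the initiator tRNA carrier eIF2, at the cap-binding complex eIF4F and at eEF2. Stress kinases phosphorylate eIF2 and so block its exchange factor eIF2B, 4E-binding proteins hold back the cap-binding protein eIF4E, and eEF2 kinase halts elongation. In neurons these switches are known for their part in synaptic plasticity and memory. They act on proteins, through phosphorylation, and the mRNA levels reported here do not measure them.

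Between 72098582 and 94726962 reads per TRAP library of non-defeated mice, 75325264 and 87316567 of resilient mice, 73348628 and 77566993 of susceptible mice and 64110214 and 80063224 of input were counted on genes. The 8 PV interneuron markers together had 3303 to 4579 normalized CPM (counts scaled to the size of the library) in the TRAP libraries and 551 to 649 in input, and all 8 were higher in TRAP at an adjusted p under 0.05. Markers of other cells remained in TRAP at lower levels, with the 8 excitatory neuron markers summing to 490 to 1041 CPM there and 1885 to 2225 in input, and the 7 oligodendrocyte markers to 517 to 1594 and 2933 to 3306. Astrocyte markers (6) summed to 201 to 432 CPM in TRAP and 693 to 739 in input, and microglia markers (6) to 23.7 to 32.9 and 63.8 to 73.5. Markers of red blood cells set the susceptible mice apart. The 5 erythroid genes summed to 890 to 1239 CPM in susceptible, 116 to 243 in non-defeated and 129 to 599 in resilient libraries and 780 to 987 in input, and 4 of the 5 were higher in susceptible than in resilient mice. The 6 endothelial genes summed to 20.04 to 32.6 CPM in susceptible, 6.97 to 11.9 in non-defeated, 10.7 to 35.8 in resilient and 5.75 to 8.41 in input libraries. The part of these cells in the results was not tested. The translation factors together made up 8658 ± 135 CPM (SD, n = 4) in non-defeated, 8493 ± 231 (n = 4) in resilient and 8922 ± 263 (n = 3) in susceptible TRAP libraries and 8239 ± 103 (n = 3) in input. The input libraries, at 8164 to 8356, lay below the non-defeated TRAP libraries, at 8548 to 8849, and the susceptible ones, at 8699 to 9212, lay just above the resilient ones, at 8220 to 8694, and overlapped the non-defeated ones. Among non-defeated libraries, Eif5a2 had 73.8 and 69.8 CPM in C1 and C6 and 101 and 101 in C9 and C11. Eif2s2 had 103 and 101 and 78.2 and 83.0, so both split by low and high number in the sample name. Both genes were picked after their values were seen. In resilient libraries R3, R5, R7 and R8, Eif2s2 had 87.2, 79.7, 78.9 and 86.8 CPM, without such a split. Eif5a2 had 89.2, 65.5, 109 and 92.3 there, with one. The labels do not say what the number in the sample name stands for.

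Per length of transcript (RPKM, the normalized CPM divided by the length of the merged exons in kilobases), the members spanned the range from Eif1, which guards the choice of start codon, at 392 ± 45.5 (SD, n = 4) in TRAP of non-defeated mice to Eef1akmt3, a lysine methyltransferase of eEF1A, at 0.279 ± 0.0584. After Eif1 came Eif5a, which relieves ribosomes stalled at prolines, at 305 ± 20.7 RPKM, the Eif1 paralog Eif1b at 205 ± 18.7, Eef1a1, a carrier of aminoacyl-tRNA, at 186 ± 6.56 and Eef2, the translocation factor, at 159 ± 15.2. Of these neighbors, only Eif1b and Eef1a1 had ranges of mean ± SD that overlapped. In input the order began with Eef1a1 at 347 ± 29.1 RPKM (n = 3) and Eif1 at 333 ± 4.53, whose ranges also overlapped, followed by Eif5a at 260.5 ± 13.2. Taken over the longest transcript in place of all exons, the TRAP level of Eef1a1 became 258.5 RPKM and that of the helicase Eif4a2 went from 70.2 to 138.5. With that length Eef1a1 ranked 3 in place of 4 and Eif4a2 kept rank 7 in TRAP. Subunits of 1 complex did not share a level. Among the 14 eIF3 genes the TRAP level ran from 7.39 ± 0.562 RPKM for Eif3e to 69.4 ± 2.35 for Eif3h. The 4 eIF2 kinases were low except for the heme-regulated kinase Eif2ak1 at 19.5 ± 0.976 RPKM, against 1.90 ± 0.432 for the amino acid sensor Eif2ak4, 1.17 ± 0.185 for the endoplasmic reticulum kinase Eif2ak3 and 0.588 ± 0.0213 for the double-stranded RNA sensor Eif2ak2.

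**Figure D1:**
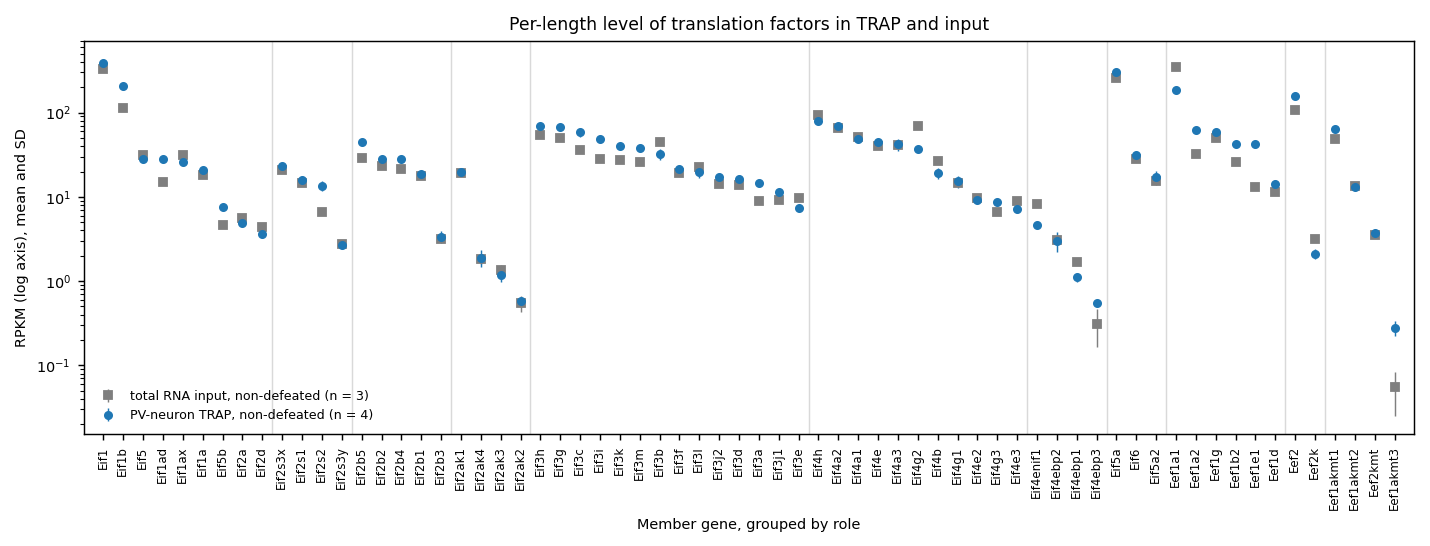
Mean and SD of the per-length level (RPKM, log axis) of the 66 tested translation factors in TRAP (n = 4) and input (n = 3) of non-defeated mice, grouped by role and ordered by TRAP level. Eif1, Eif5a, Eif1b, Eef1a1 and Eef2 were the highest in both, and Eef1akmt3 was the lowest.

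Many genes of the translation machinery carry a pyrimidine run at the start of their mRNA, the feature through which mTOR signaling controls their translation. In the RefSeq promoter table (GRCm38.p6), 51 of the 67 members had an entry. A run of at least 8 pyrimidines across or next to the annotated start was held by 6 of the 51 (11.8%) and by 6.30% of all 27025 genes of the table. The runs of 4 of these members, from 20 bases before the start to 20 after it, are given with the run in capitals. The other holders, Eef1a1 and Eif4enif1, both lower in TRAP than in input, are not shown. The annotated start follows the first 20 bases of each stretch. Part of every run lies before it, and most of the run in Eif2b5 and Eif3l. The capitals are therefore not all within the annotated mRNA. The windows were chr7:108934395-108934434 (plus strand), chrX:94212632-94212671 (minus), chr16:20498797-20498836 (plus) and chr15:79075203-79075242 (plus), written 5′ to 3′ on the gene's strand.
Eif3f: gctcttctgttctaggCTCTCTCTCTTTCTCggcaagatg
Eif2s3x: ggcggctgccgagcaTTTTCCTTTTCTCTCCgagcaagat
Eif2b5: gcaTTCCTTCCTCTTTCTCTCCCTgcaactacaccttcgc
Eif3l: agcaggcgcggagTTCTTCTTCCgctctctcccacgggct

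Of the 6 members with such a run, Eif2b5 was higher in TRAP than in input, Eef1a1 and Eif4enif1 were lower, and Eif2s3x, Eif3f and Eif3l did not pass the test. The starts are annotated ones and were not measured in these cells, and that of Eef1a1 may lie before its known start. The motifs and windows were chosen after the values were seen, and a match is a description of the letters only.

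Other short motifs were searched on both strands in the 300 bases from 250 before the start to 50 after it. The palindromic E-box CACGTG occurred in 12 of the 51 members (23.5%, against 8.09% of all genes), the ETS core CCGGAAGT in 9 (17.6% against 4.31%) and the NRF1 core (GCGCA, any base, GCGC) in 8 (15.7% against 5.19%). The ATF4 core TGATGNAA, a motif named for the factor that acts below eIF2 phosphorylation, occurred in 2 (3.92% against 4.51%), and the cAMP response element TGACGTCA in 1 (1.96% against 2.03%). The next stretches run from 50 bases before the start to 10 after it, with the motifs in capitals. They are shown for Eef2, which held both CACGTG and the only TGACGTCA, and for Eef1b2 and Eif2b4, which held CCGGAAGT next to the start. All 3 genes were higher in TRAP. The windows were chr10:81176581-81176640 (plus), chr1:63176781-63176840 (plus) and chr5:31193130-31193189 (minus).
Eef2: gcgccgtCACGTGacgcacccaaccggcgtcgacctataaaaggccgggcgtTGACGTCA
Eef1b2: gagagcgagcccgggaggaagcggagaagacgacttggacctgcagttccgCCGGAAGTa
Eif2b4: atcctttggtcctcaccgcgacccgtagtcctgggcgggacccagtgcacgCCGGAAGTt

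Of the 12 members with CACGTG, 5 were higher and 2 lower in TRAP than in input. Of the 9 with CCGGAAGT, 4 were higher and 0 lower, and of the 8 with the NRF1 core, 5 were higher and 0 lower. These small counts stand beside 39.4% higher and 19.7% lower over the 66 members and 27.4% and 27.6% over all genes, and nothing particular to a motif was tested. The remaining holders of each motif did not pass the test.

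The first comparison asked which translation factors were more or less abundant in ribosome-bound RNA of PV neurons than in total hippocampal RNA of the same kind of mouse. Of the 66 members tested, 39 differed between TRAP and input of non-defeated mice at an adjusted p under 0.05 (edgeR quasi-likelihood test), with 26 higher and 13 lower in TRAP. Over all genes tested 55.0% differed, 27.4% higher and 27.6% lower. The members' own shares were 59.1% differing, 39.4% higher and 19.7% lower. With an offset for gene length the split was 36 higher and 8 lower, and with one for GC content 33 and 8. The shares of all genes come from the fit without an offset, and those with an offset are not given here. The median log2 fold change of the members was 0.16, and that of all genes was -0.04. Since TRAP differs from input in cell type, in ribosome binding and in the RNA handling, these cannot be told apart here, and in bulk RNA fewer cells of a type and less RNA per cell cannot be told apart either.

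**Figure D2:**
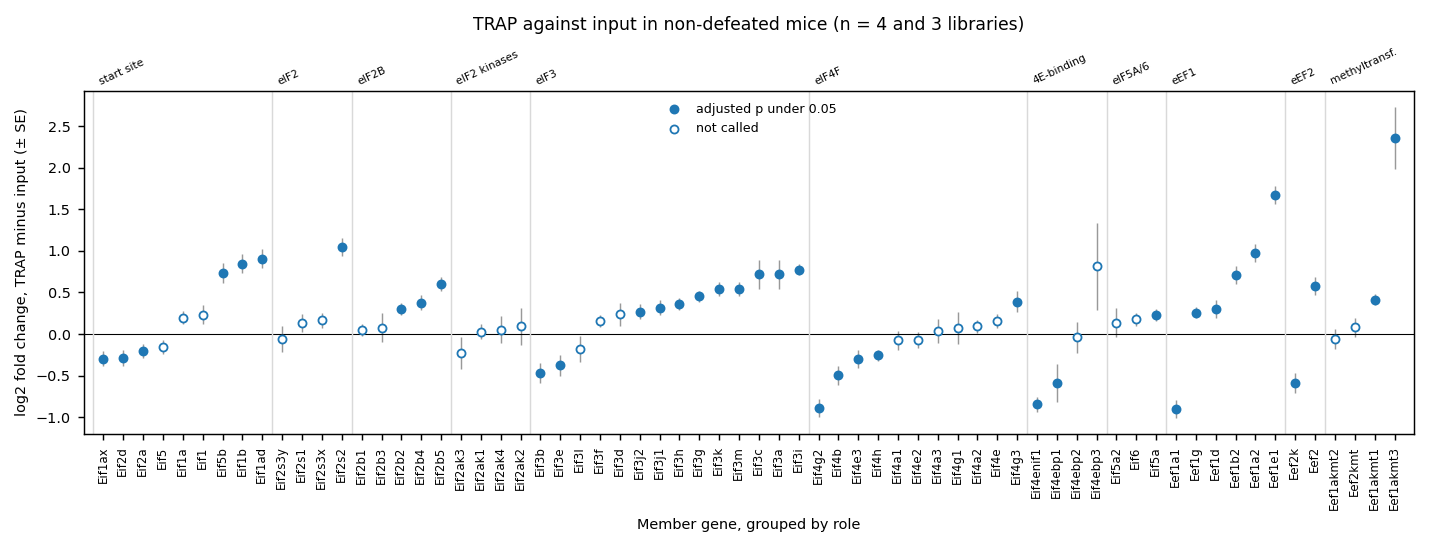
Log2 fold change (± SE) of each of the 66 tested members between TRAP (n = 4) and input (n = 3) of non-defeated mice, grouped by role, with filled points for an adjusted p under 0.05. The eEF1 group holds both a strongly higher gene, Eef1e1 at 1.67, which is in it by name, and one of the lowest, Eef1a1 at -0.90.

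The elongation factor 1 group split. Eef1a1 (ENSMUSG00000037742, chr9:78478449-78489151, minus strand) had 948, 809.8 and 840.3 normalized CPM in input libraries CI12, CI13 and CI14 and 484, 447, 454 and 470.5 in TRAP libraries C1, C6, C9 and C11. Its paralog Eef1a2 (ENSMUSG00000016349, chr2:181147653-181157014, minus strand), the form that replaces Eef1a1 in adult neurons and muscle, had 69.3, 62.1 and 69.3 CPM in input and 124, 136, 139 and 125 in TRAP. The groups did not overlap for either gene and went in opposite directions. TRAP and input did not overlap in 46 of the 66 members (69.7%), against 62.0% of all genes. The log2 fold change was -0.90 (SE 0.11, adjusted p = 7.42e-06) for Eef1a1 and 0.97 (SE 0.11, adjusted p = 3.93e-06) for Eef1a2. As a share of both genes' per-length level (RPKM), Eef1a2 made up 8.48 ± 0.474% (SD, n = 3) in input and 25.3 ± 1.75% (n = 4) in TRAP, so Eef1a1 remained the larger share in both. The share depends on the length taken for Eef1a1, as given for its level. Of the 150-base stretches of Eef1a1 exons, 10.1% also occurred in other genes, and none of Eef1a2 did. These calls held in all 15 alternative settings.

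Eef1e1, which encodes a subunit of the tRNA synthetase complex, showed the largest difference with a small error. It had 42.3, 43.5 and 42.3 CPM in the input libraries and 148, 147, 125 and 125 in TRAP, a 3.19-fold difference (log2 1.67 (SE 0.11, adjusted p = 2.85e-08)). The subunits of the complex that reloads eEF1A with GTP were also higher, Eef1b2 at 108 ± 2.27 CPM (SD, n = 4) in TRAP and 65.9 ± 4.61 (n = 3) in input. The log2 fold changes were 0.71 for Eef1b2, 0.30 for Eef1d and 0.26 for Eef1g. Eef1d shares 277 exonic bases with Naprt on the same strand. For Eef1g, 41.7% of 150-base stretches occur in another gene, so its count is uncertain. All 6 genes of the group, which takes in Eef1e1 by its name, thus differed, 5 higher and 1 lower. Over all genes 55.0% differed, 27.4% higher and 27.6% lower.

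At the translocation step, the factor and its inhibitor differed in opposite directions. Eef2 had 368, 332 and 361 CPM in input and 469, 519.7, 592 and 532 in TRAP, with no overlap and a log2 fold change of 0.58 (SE 0.10, adjusted p = 2.85e-04). Its kinase Eef2k, which phosphorylates and halts eEF2, had 23.4, 25.1 and 22.4 CPM in input and 12.9, 15.5, 17.9 and 16.5 in TRAP (log2 -0.59 (SE 0.12, adjusted p = 7.78e-04)), and with an offset for gene length the difference of Eef2k was -0.30 (adjusted p = 0.0181). Of the 4 methyltransferases that modify eEF1A or eEF2, 2 were higher, against 27.4% of all genes. They were Eef1akmt1 (log2 0.41) and the rare Eef1akmt3, which went from 0.149 ± 0.0799 CPM in input to 0.758 ± 0.159 in TRAP (log2 2.36 (SE 0.37)). Eef1akmt3 shares 100 exonic bases with Mettl1 on the other strand, and the strand setting of the counts is not given in the sources used here.

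**Figure D3:**
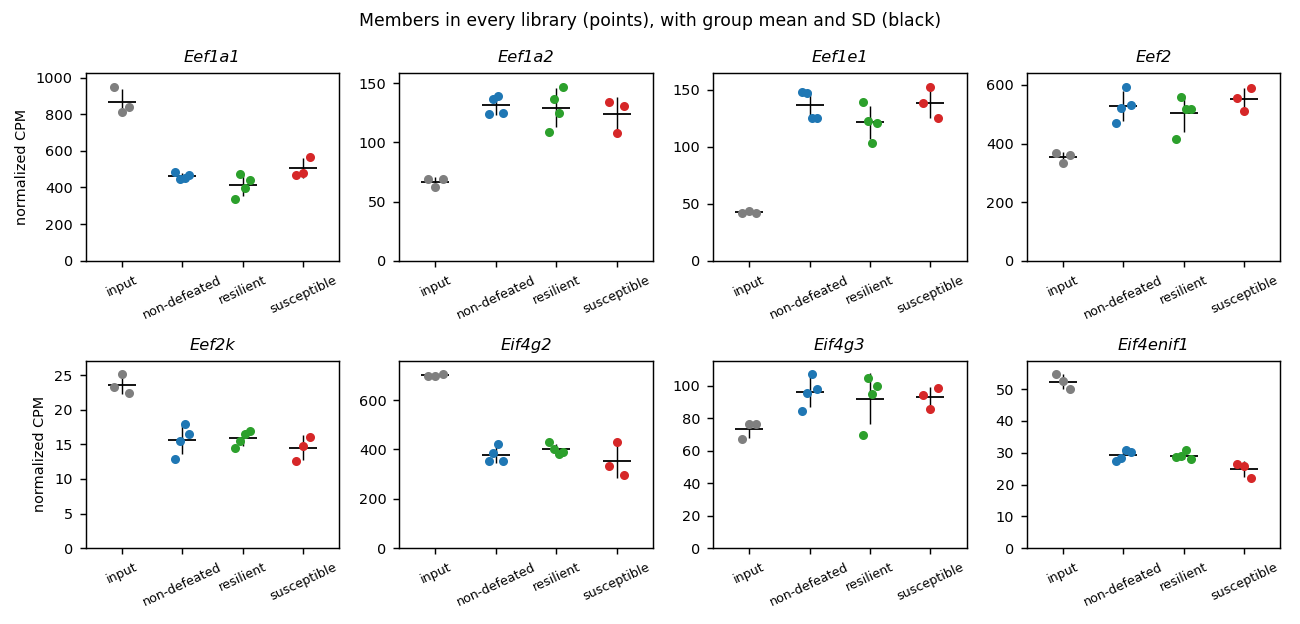
Normalized CPM of 8 members in every library (points) with the group mean and SD (black) in input, non-defeated, resilient and susceptible TRAP libraries, each axis starting at 0. Eef1a1, Eef2k, Eif4g2 and Eif4enif1 are highest in input, and Eef1a2, Eef1e1 and Eef2 are lowest there, while for Eif4g3 the mean is lowest in input and resilient library R3 lies among the input points.

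At the cap-binding step 1 of 11 genes was higher and 4 were lower in TRAP, against 27.4% and 27.6% of all genes. With an offset for gene length or for GC content, 3 were higher and 3 lower, without a share of all genes to set beside them. Among the scaffold genes, 1 was lower and 1 higher. Eif4g2, an eIF4G relative that lacks the eIF4E-binding region and serves cap-independent initiation, had 699, 697 and 704 CPM in input and 352, 386, 423 and 353 in TRAP (log2 -0.89 (SE 0.11, adjusted p = 8.71e-06)). The canonical scaffold Eif4g1 did not pass the test, at 106 ± 2.60 CPM in input and 112 ± 17.5 in TRAP (log2 0.08 (SE 0.19, adjusted p = 0.752)), while Eif4g3 was higher, at 67.1, 76.5 and 76.5 and 84.3, 95.6, 107 and 97.9 (log2 0.39 (SE 0.13, adjusted p = 0.0169)). With the length offset Eif4g2 stood at log2 -0.58 and Eif4g3 at 0.69. The call of Eif4g3 was lost without input library CI12 (log2 0.33, adjusted p = 0.0788). The helicase cofactors Eif4b (log2 -0.49 (SE 0.12, adjusted p = 0.00224)) and Eif4h (log2 -0.26 (SE 0.07, adjusted p = 0.00448)) were lower. With an offset for gene length the difference of Eif4h was 0.01 on the log2 scale, and Eif4b kept its call at -0.29. The cap-binding protein Eif4e stood at 242 ± 11.8 CPM in input and 270.0 ± 7.16 in TRAP (log2 0.16 (SE 0.08, adjusted p = 0.113)). The helicases Eif4a1 (log2 -0.08 (SE 0.12, adjusted p = 0.604)) and Eif4a2 (log2 0.09 (SE 0.08, adjusted p = 0.341)) did not pass the test either. With an offset for gene length or for GC content, Eif4e and Eif4a2 did pass, both higher in TRAP, at log2 0.44 and 0.35 with the length offset, and Eif4e also passed with DESeq2 or in the 2 groups only.

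Among the 4 eIF4E-binding proteins, Eif4enif1, a nuclear import partner of eIF4E, stood at 54.7, 52.5 and 50.1 CPM in input and 27.5, 28.2, 30.8 and 30.1 in TRAP (log2 -0.85 (SE 0.09, adjusted p = 1.39e-06); -0.56 with the length offset). Eif4ebp1 was lower at a low level, 3.68 ± 0.103 CPM in input and 2.86, 2.47, 2.29 and 2.15 in TRAP (log2 -0.59 (SE 0.23, adjusted p = 0.0427)), and this call was lost in 9 of the 15 alternative settings, including each of the 3 without 1 input library and those without C6, C9 or C11 (adjusted p of 0.0717 to 0.102). The more abundant Eif4ebp2 stood at 17.9 ± 0.581 and 17.5 ± 4.79 CPM (log2 -0.04 (SE 0.19, adjusted p = 0.879)), a difference smaller than its error.

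The initiator tRNA carrier eIF2 has 3 subunits. Eif2s2 (ENSMUSG00000074656, chr2:154871410-154892935, minus strand), the beta subunit, had 44.0, 44.7 and 43.8 CPM in input and 103, 101, 78.2 and 83.0 in TRAP, a 2.07-fold difference without overlap (log2 1.05 (SE 0.11, adjusted p = 2.04e-06)). Eif2s1, the alpha subunit that the stress kinases phosphorylate, stood at 71.6 ± 4.92 CPM in input and 78.6 ± 9.14 in TRAP (log2 0.13 (SE 0.11, adjusted p = 0.326)). It passed the test, higher in TRAP, only with an offset for gene length or for GC content (log2 0.37 and 0.29). The gamma subunit genes on the sex chromosomes did not pass, at log2 0.16 for Eif2s3x and -0.05 for Eif2s3y, and 34.3% of the 150-base stretches of Eif2s3x occur in another gene. In the exchange factor eIF2B, 3 of 5 subunit genes were higher and 0 lower, against 27.4% and 27.6% of all genes. The catalytic subunit Eif2b5 had 76.3, 78.0 and 73.4 CPM in input and 109, 107, 124 and 121 in TRAP (log2 0.60 (SE 0.09, adjusted p = 4.19e-05)), with Eif2b4 at log2 0.38 and Eif2b2 at 0.31, while Eif2b1, in the regulatory part of the complex, stood at 0.05 and did not pass. None of the 4 eIF2 kinases passed the quasi-likelihood test, adjusted or unadjusted, with log2 fold changes from -0.23 for Eif2ak3 to 0.09 for Eif2ak2. With an offset for gene length, Eif2ak1 (log2 0.30) and Eif2ak4 (0.34) passed, both higher in TRAP.

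Of the 14 genes of eIF3, the scaffold of the small ribosomal subunit, 9 were higher and 2 lower in TRAP. Over all genes the shares were 27.4% and 27.6%. The 9 include the near-copies Eif3j1 and Eif3j2, which are not separate measurements. Of the 150-base stretches of Eif3j2, 77.1% also occur in Eif3j1. Eif3i had 107, 103 and 105 CPM in input and 185, 169, 179 and 186 in TRAP (log2 0.77 (SE 0.07, adjusted p = 3.12e-07)), and Eif3g had 96.5, 100.2 and 99.5 and 135, 135, 136 and 135 (log2 0.45 (SE 0.06, adjusted p = 2.80e-05)). TRAP and input did not overlap for either gene. The largest subunit, Eif3a, stood at 78.2 ± 1.36 CPM in input and 129 ± 15.4 in TRAP (log2 0.72 (SE 0.18, adjusted p = 0.00310)), whereas Eif3b, which binds Eif3g and Eif3i in the complex, was lower at 159, 145 and 145 and 97.0, 92.3, 122 and 123 CPM (log2 -0.46 (SE 0.12, adjusted p = 0.00452)). The second lower subunit, Eif3e, at log2 -0.38 (SE 0.13, adjusted p = 0.0210), lost its call in 6 of the 15 alternative settings, those without C1, C6, CI12 or CI13 (adjusted p of 0.0501 to 0.0721) and the offsets for gene length (log2 -0.09, adjusted p = 0.486) and GC content (log2 -0.14, adjusted p = 0.298).

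Of the 9 genes for start site selection and subunit joining, 3 were higher and 3 lower, against 27.4% and 27.6% of all genes. Eif1b had 126, 133 and 126 CPM in input and 251, 246, 209.8 and 215 in TRAP (log2 0.84 (SE 0.11, adjusted p = 2.33e-05)), and as a share of the per-length level of the pair with Eif1 it went from 25.5 ± 0.437% (SD, n = 3) to 34.4 ± 1.05% (n = 4). Eif1 itself stood at 699.5 ± 9.50 and 823 ± 95.5 CPM and did not pass (log2 0.23 (SE 0.11, adjusted p = 0.0848)). Eif1ad, a relative of eIF1A, was higher at log2 0.91 (SE 0.11, adjusted p = 9.46e-06), and it shares 428 exonic bases with Banf1 on the other strand. Eif5b, the GTPase that joins the large subunit, had 45.7, 45.2 and 43.7 CPM in input and 76.4, 82.8, 70.7 and 68.0 in TRAP (log2 0.73 (SE 0.12, adjusted p = 1.05e-04)), and it shares 1643 exonic bases with Rev1 on the other strand. Eif1ax, the X-linked eIF1A gene, was lower at 157, 173 and 173 and 125, 139, 141 and 142 CPM (log2 -0.30 (SE 0.09, adjusted p = 0.0116)), a call lost with an offset for gene length or GC content. Eif5a, at log2 0.23 (SE 0.08, adjusted p = 0.0196), was the only called gene of its group of 3, and its call was lost without C1 (adjusted p = 0.0573) or CI14 (0.0931). Its paralog Eif5a2 (log2 0.14) and Eif6 (log2 0.18 (SE 0.08, adjusted p = 0.0593)), which keeps the large subunit free, did not pass. Eif6 did pass, higher in TRAP, with RLE size factors, DESeq2, the 2 groups only and both offsets (adjusted p of 0.00384 to 0.0445).

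The stress comparisons asked whether these mRNAs differed in PV neuron TRAP between mice with different outcomes of defeat. They share samples, so each is given with its own values. Between resilient and non-defeated mice 0 of the 66 members passed the edgeR quasi-likelihood test at an adjusted p under 0.05, as did 0 of all genes (0%). At an unadjusted p under 0.05 the count was 0 of 66, against 4.38% of all genes, and DESeq2 called 0 after adjustment. The log2 differences ran from -0.24 for Eif4ebp2 to 0.23 for Eif2ak3, with a median of -0.02 and 0.00 over all genes. The members with the smallest p were Eif2d, a carrier of initiator tRNA that does not need GTP, at 22.8, 27.8, 28.2 and 26.9 CPM in non-defeated and 30.1, 29.4, 32.6 and 27.1 in resilient libraries (log2 0.18 (SE 0.09)), Eif3g (log2 0.09 (SE 0.06)) and Eif3b (log2 0.18 (SE 0.11)) on the higher side. On the lower side they were Eif2s3x (log2 -0.15 (SE 0.08)), Eef1e1 (log2 -0.17 (SE 0.10)) and Eef1a1 (log2 -0.17 (SE 0.10)). Only Eif3g was free of overlap among these 6, at 135, 135, 136 and 135 CPM in non-defeated and 147, 137, 151 and 141 in resilient libraries (exact permutation p = 0.0286, 2-sided, the smallest this design allows). It was the 1 member of 66 (1.52%) without overlap, against 2.35% of all genes.

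**Figure D4:**
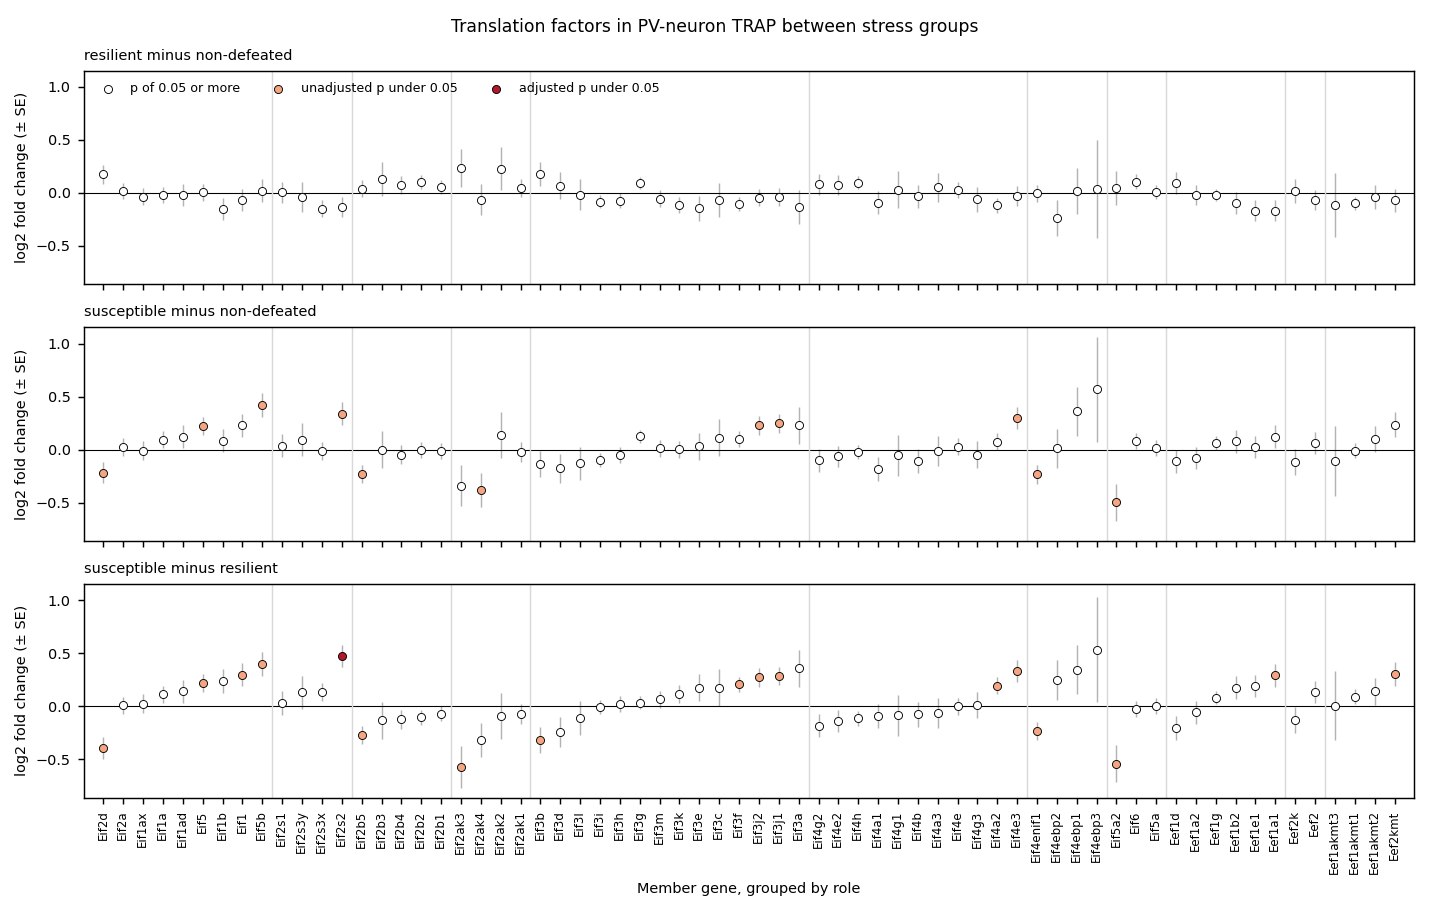
Log2 fold change (± SE) of the 66 tested members between resilient and non-defeated (n = 4 and 4), susceptible and non-defeated (n = 3 and 4) and susceptible and resilient (n = 3 and 4) TRAP libraries, grouped by role. Orange points mark an unadjusted p under 0.05 (0, 11 and 17 members) and the red point an adjusted p under 0.05 (Eif2s2, susceptible minus resilient).

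Between susceptible and non-defeated mice 0 members passed at an adjusted p under 0.05 by edgeR's quasi-likelihood test and 0 by DESeq2, against 0.0376% of all genes by the former. At an unadjusted p under 0.05 there were 11 of 66, against 13.3% of all genes, with 6 higher and 5 lower, against 6.61% and 6.70%. Eif5b had 76.4, 82.8, 70.7 and 68.0 CPM in non-defeated and 98.2, 86.1 and 115 in susceptible libraries (log2 0.42 (SE 0.11, adjusted p = 0.180)), and Eif2s2 had 103, 101, 78.2 and 83.0 and 132, 109 and 105 (log2 0.34 (SE 0.11, adjusted p = 0.221)). Eif4e3, a cap-binding relative of eIF4E, had 20.5, 18.6, 16.4 and 16.6 CPM in non-defeated and 22.6, 22.1 and 21.9 in susceptible libraries (log2 0.30 (SE 0.10, adjusted p = 0.257)). In these 3 genes all susceptible libraries lay above all non-defeated ones. On the lower side, Eif5a2 had 73.8, 69.8, 101 and 101 and 51.6, 71.8 and 60.1 CPM (log2 -0.50 (SE 0.17, adjusted p = 0.264)), with an overlap, and Eif4enif1 (log2 -0.24 (SE 0.09, adjusted p = 0.282)) and Eif2b5 (log2 -0.23 (SE 0.09, adjusted p = 0.288)) did not overlap. Over all 66 members, 8 (12.1%) did not overlap, against 8.62% of all genes. Each of the 5 named here, which were chosen for their small p, had an exact permutation p of 0.0571 (2-sided), the smallest that 3 against 4 libraries can give. The count of 11 became 3 without S2 and 7 without C11. The erythroid and endothelial sums were also higher in every susceptible library than in the non-defeated ones, and their part in these differences was not tested.

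Between susceptible and resilient mice 1 member, Eif2s2, passed at an adjusted p under 0.05, against 1.89% of all genes. At an unadjusted p under 0.05 there were 17 of 66 members, against 20.9% of all genes, with 11 higher and 6 lower in susceptible mice, against 10.8% and 10.1%. The groups did not overlap in 13 of the 66 members (19.7%), against 15.1% of all genes. The median log2 difference was 0.02, and 0.00 over all genes.

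Eif2s2 had 87.2, 79.7, 78.9 and 86.8 CPM in resilient libraries R3, R5, R7 and R8 and 132, 109 and 105 in susceptible libraries S2, S4 and S10. Every susceptible library lay above every resilient one, and the non-defeated libraries, at 78.2 to 103, overlapped the resilient ones. The difference was 1.39-fold (log2 0.47 (SE 0.11, adjusted p = 0.0428); exact permutation p = 0.0571, 2-sided). This call was lost in 11 of 17 alternative settings, among them the fit of the 2 groups only (adjusted p = 0.142), the 11 TRAP libraries only (0.106), the offset for GC content (0.0857) and a term for the number in the sample name (0.0517). Without each of R3, R5, R7, R8, S2 and S4 the adjusted p was 0.0574, 0.0778, 0.117, 0.0950, 0.176 and 0.0677, and without S10 it was 0.0288. The log2 difference stayed between 0.36 and 0.54 throughout. Within the libraries numbered 1 to 6 the difference was 0.52 and within those numbered 7 to 11, with 1 susceptible library, it was 0.35. The erythroid sum was also higher in susceptible libraries, as given above, and its part in this difference was not tested. The 110 bases around the annotated start of Eif2s2 (chr2:154892897-154893006, minus strand, GRCm38.p6) are shown because it was the one called member. They held none of the motifs searched, and the NRF1 core of this gene lies outside the stretch.
Eif2s2: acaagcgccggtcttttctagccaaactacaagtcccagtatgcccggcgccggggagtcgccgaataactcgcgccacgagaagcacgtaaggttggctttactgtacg

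**Figure D5:**
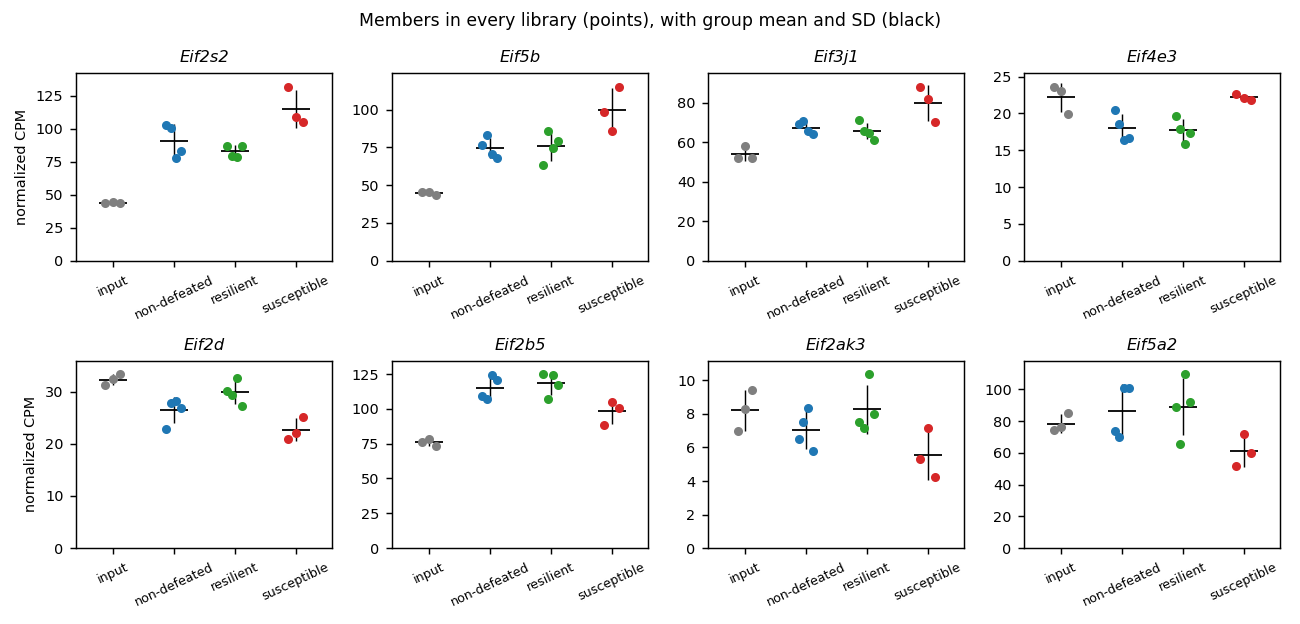
Normalized CPM of 8 members with small p between susceptible and other mice, in every library (points) with the group mean and SD (black), each axis starting at 0. All 3 susceptible libraries lie above all resilient ones for Eif2s2, Eif5b and Eif4e3 and below them for Eif2d and Eif2b5, the nearest points of Eif2ak3 nearly tie, and the groups overlap for Eif3j1 and Eif5a2.

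The other members with the smallest p between susceptible and resilient mice did not pass after adjustment. Eif5b had 63.0, 85.6, 74.5 and 79.3 CPM in resilient and 98.2, 86.1 and 115 in susceptible libraries (log2 0.40 (SE 0.11, adjusted p = 0.0764)), with 0.32 within the libraries numbered 1 to 6 and 0.58 within those numbered 7 to 11. Eif3j1, a loosely bound eIF3 subunit, had 71.4, 65.7, 64.6 and 61.2 and 88.0, 82.0 and 70.2 (log2 0.28 (SE 0.09, adjusted p = 0.0961)). Eif3j1 shares 32.7% of its 150-base stretches with its near-copy Eif3j2, which moved by 0.27, and 1107 exonic bases with Spg11 on the other strand, so these 2 members are not separate measurements. On the lower side, Eif2d had 30.1, 29.4, 32.6 and 27.1 CPM in resilient and 20.9, 22.0 and 25.1 in susceptible libraries (log2 -0.39 (SE 0.10, adjusted p = 0.0584)), Eif2b5 had 125, 107, 124 and 117 and 88.4, 105 and 101 (log2 -0.27 (SE 0.09, adjusted p = 0.101)), and Eif5a2 had 89.2, 65.5, 109 and 92.3 and 51.6, 71.8 and 60.1 (log2 -0.54 (SE 0.18, adjusted p = 0.106)). Eif2d passed after adjustment with DESeq2 (adjusted p = 0.0362), with edgeR's likelihood ratio test (0.0271), with at least 10 counts in every library (0.0499) and without S10 (0.0325). Eif5b passed with the likelihood ratio test (0.0394) and with the length offset (0.0476). Without S10, 7 members passed, namely Eif1, Eif1b, Eif2d, Eif2s2, Eif3b, Eif3j1 and Eif3j2. The share of all genes called without S10 is not given here, so the 7 cannot be set against it.

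Of the 9 genes of eIF2 and eIF2B, only Eif2s2 and Eif2b5 reached an unadjusted p under 0.05 between susceptible and resilient mice, the former higher and the latter lower. Over all genes 20.9% reached it, to be read beside each count in this paragraph. The eIF2 subunit genes ran from 0.03 for Eif2s1 to 0.47 for Eif2s2 and the eIF2B genes from -0.27 for Eif2b5 to -0.07 for Eif2b1. The sign turned for 3 of the others, with Eif2s1 at -0.07 and Eif2s3y at -0.01 within libraries 1 to 6 and Eif2b3 at 0.15 within libraries 7 to 11. Of the 4 eIF2 kinases 1, Eif2ak3, reached an unadjusted p under 0.05. Eif2ak3 is expressed at a low level, 7.51, 7.18, 10.4 and 8.02 CPM in resilient and 5.30, 7.18 and 4.21 in susceptible libraries (log2 -0.57 (SE 0.20, adjusted p = 0.125)), and without S10 its log2 difference was -0.41. Eif2ak4 stood at -0.32, Eif2ak2 at -0.09 and Eif2ak1, which is abundant in red cell precursors, at -0.07, with 114 ± 8.02 CPM in resilient and 109 ± 15.9 in susceptible libraries. The sign of Eif2ak1 turned within libraries 1 to 6 (0.01) and that of Eif2ak2 within libraries 7 to 11 (0.45). The eIF4F genes had 2 of 11 members at an unadjusted p under 0.05, both higher, Eif4a2 (log2 0.19 (SE 0.08)) and Eif4e3 (log2 0.33 (SE 0.10)), while Eif4e (log2 0.00 (SE 0.08)), Eif4g1 (log2 -0.08 (SE 0.19)), Eif4g2 (log2 -0.18 (SE 0.11)), Eif4g3 (log2 0.01 (SE 0.13)) and Eif4a1 (log2 -0.09 (SE 0.12)) did not reach it. For the inhibitors Eif4ebp1 (log2 0.35 (SE 0.23)) and Eif4ebp2 (log2 0.25 (SE 0.18)) the errors were wide.

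No elongation factor gene passed after adjustment in a stress comparison. Eef2 had 414, 560.3, 519 and 518 CPM in resilient and 555, 512 and 589 in susceptible libraries (log2 0.13 (SE 0.10, adjusted p = 0.490)), and Eef2k stood at 15.9 ± 1.06 and 14.5 ± 1.82 (log2 -0.13 (SE 0.12, adjusted p = 0.580)). Eef1a1 had 336, 476, 395 and 443 CPM in resilient and 468, 478 and 567 in susceptible libraries, with an overlap (log2 0.29 (SE 0.11, adjusted p = 0.149)), and the methyltransferase gene Eef2kmt stood at log2 0.30 (SE 0.12, adjusted p = 0.158), both at an unadjusted p under 0.05, while Eef1a2 (log2 -0.06 (SE 0.11)) and Eef1b2 (log2 0.18 (SE 0.11)) did not reach an unadjusted p under 0.05. The share of Eef1a2 in the pair was 27.3 ± 1.22% (SD, n = 4) in resilient, 22.8 ± 2.39% (n = 3) in susceptible and 25.3 ± 1.75% (n = 4) in non-defeated libraries. The susceptible libraries, at 21.2 to 25.5%, lay just below the resilient ones, at 25.6 to 28.4%, and the non-defeated libraries, at 23.5 to 26.9%, overlapped both. For Eif5a2 in the pair with Eif5a, the share of the per-length level was 3.80 ± 0.571% in susceptible, 5.44 ± 0.845% in resilient and 5.38 ± 1.29% in non-defeated libraries, and for Eif4a2 in the pair with Eif4a1 it was 63.1 ± 4.14%, 58.5 ± 3.01% and 58.9 ± 1.11%, in that order. The susceptible libraries lay below the resilient ones for Eif5a2, at most 4.34% against at least 4.37%, and overlapped them for Eif4a2. Eif5a (log2 0.01 (SE 0.08)), Eif6 (log2 -0.02 (SE 0.08)), Eif3e (log2 0.18 (SE 0.13)) and Eif3a (log2 0.36 (SE 0.17)) did not reach an unadjusted p under 0.05 between susceptible and resilient mice.

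Across the 11 TRAP libraries the members most like Eef2 in log2 CPM were Eif3c (Pearson r = 0.93), Eif4g3 (0.92) and Eif3a (0.89). Without the 2 libraries farthest from the median of Eef2, r was 0.88, 0.72 and 0.86 over 9 libraries. All points share 1 normalization, and the libraries differ in group, so these values are a description. The low end of this relation was library R3, which had 414 CPM of Eef2, 129.5 of Eif3c and 83.3 of Eif3a, against 469 to 592 for Eef2 in the non-defeated libraries. R3 was the lowest of the 11 TRAP libraries in 16 of the 66 members and S2 in 15, and S4 was the highest in 15.

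Of 41 other genes of the pathway that were measured, among them mTOR signaling, poly(A)-binding, release and factor-modifying genes, 16 were higher and 11 lower in TRAP than in input. These made up 65.9%, against 55.0% of all genes, 27.4% higher and 27.6% lower. Paip2, an inhibitor of poly(A)-binding protein, stood at 1.20 on the log2 scale (adjusted p = 3.84e-07) and Rheb, the activator of mTOR, at 0.70. The enzymes Dhps and Dohh, which make the hypusine residue of eIF5A, stood at 0.57 and 0.55. On the lower side were Tsc2 (-0.82) and Tsc1 (-0.54), the inhibitors of Rheb, Mtor itself (-0.41), and Ppp1r15a (-0.71) and Ppp1r15b (-0.70), which guide the phosphatase that removes phosphate from eIF2. Other mTOR signaling genes went both ways, with Akt1s1 (0.44) and Rptor (0.23) called higher and Mlst8 (-0.56) called lower. With an offset for gene length 26 of the 41 were called, against 27 in the main fit. The values of these single genes with that offset are not given here. In each of the 3 stress comparisons 0 of the 41 passed at an adjusted p under 0.05. At an unadjusted p under 0.05 there were 1 higher and 1 lower between resilient and non-defeated mice, 4.88% of the 41 against 4.38% of all genes. Between susceptible and non-defeated mice 2 were higher and 0 lower, 4.88% against 13.3%. Between susceptible and resilient mice 9 were higher and 1 lower, and over all genes 10.8% were higher and 10.1% lower. Among the 9 were Mcts1 (log2 0.35) and Denr (0.28), which form a complex related to eIF2D, and Pabpc1 (0.36), the poly(A)-binding protein. These 10 made up 24.4% of the 41, beside 20.9% of all genes. DESeq2 on the 2 groups called 1 of the 41 in that comparison after adjustment.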

How the data were processed

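The authors deposited raw counts of reads per gene for 14 libraries, without normalization. SMART-Seq v4 libraries gave single reads of 150 bases, which were trimmed with fastp and aligned with STAR (2.5.3a in the submitters' processing notes) to mm10, and HTSeq is named there. The gene annotation and the strand setting are not given in the sources used here. Samples were grouped by their labels, and 0 columns were left out.

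Gene names and lengths came from GENCODE for mouse, release 21. All 14 libraries were fitted together in edgeR 4.0.16 (R 4.3.3) with TMM normalization, the default filter on low counts and the quasi-likelihood test, 2-sided, with Benjamini-Hochberg adjustment over 21298 genes. Normalized CPM are counts scaled to the normalized library size, and RPKM divide them by the merged exon length. Exact permutation tests used log2 CPM with a prior count of 2, for which 3 against 4 libraries cannot go below 0.0571. TRAP samples came from 1 mouse each. The spread behind the p-values was estimated over all 14 libraries, inputs included, and not over TRAP mice alone. For the inputs nothing says how many mice they came from.

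Members were named by rule: those past an adjusted p of 0.05 between stress groups, the 3 with the smallest p per direction in each stress comparison, the 8 per direction in TRAP against input, and key members by role. Others are given in counts and ranges or where a group's count needed them, and those were picked after their values were seen. The members and lists were chosen with earlier results of these data known. Alternatives were RLE size factors, no filter or at least 10 counts in every library, the likelihood ratio test, DESeq2 1.42.0, the 2 groups or the TRAP libraries only, offsets for gene length and GC content, a term for sample number (1 to 6 against 7 to 11) and leaving out each library. The steps were tested on simulated data. Protein sequences were not used here.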

Additional observations from a re-analysis of the deposited data

Results flagged for a closer look

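In TRAP of non-defeated mice, Eif1ax had 124.7 normalized CPM in library C1, below the other libraries at 138.9 to 141.6. In TRAP of resilient mice, Eif4h had 521.8 normalized CPM in library R7, above the other libraries at 446.4 to 455.0. Both were singled out because 1 of 4 libraries stood far from its group by Dixon's criterion (critical value 0.829). This was asked of 82 groups of 4 libraries, those of the 41 named members, and chance alone gives about 1 in 20.

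Eif2s2 was singled out because it differed between susceptible and resilient mice, by 0.47 on the log2 scale, at an adjusted p of 0.0428 by edgeR's quasi-likelihood test. This is the comparison given above, and Eif2s2 was called against non-defeated mice in neither defeated group. All 3 susceptible libraries lay above all 4 resilient ones, and the call was lost in 11 of 17 alternative settings.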

How the results depend on the processing

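No paired analysis was run. The groups share no sample numbers, but the labels do not say whether inputs and immunoprecipitates came from the same homogenates. TRAP and input were compared as independent groups. Of the 23 named members called between TRAP and input, 17 kept direction and call in all 15 alternative settings. The count of members called there was 37 to 44 in the settings with all libraries and 32 to 37 with 1 library left out. With an offset for gene length, Eif4h reversed, from -0.26 to 0.0089 on the log2 scale (adjusted p = 0.923), and the cause was not tested.

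Between susceptible and resilient mice, the 1 called member became 0 without a filter on low counts, in the 2 groups only, in the TRAP libraries only, with the GC offset and with the term for sample number, 2 with at least 10 counts in every library, DESeq2 or the length offset, and 3 with the likelihood ratio test. With 1 library left out, 0 to 7 members were called. The share of all genes is given for the main fit only, so the counts of the other settings have none beside them. The fits of fewer libraries estimate the spread from fewer samples. The 17 members at an unadjusted p became 12 to 20 over the other settings and 14 to 20 with 1 library left out. The other genes of the pathway gave 2 calls by the likelihood ratio test, 1 by DESeq2 and 0 to 1 with 1 library left out.

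Between resilient and non-defeated mice, the 0 members at an unadjusted p became 1 with the length offset, 3 with the term for sample number and 0 to 1 with 1 library left out, and 0 were called after adjustment in any setting. Between susceptible and non-defeated mice, the 11 members became 6 in the 2 groups only and 3 to 16 with 1 library left out, and 0 were called after adjustment in any setting. Counts were low for few members, with Eif4e1b near 0 in all libraries and Eif4ebp3 (9 to 57 counts) and Eef1akmt3 (6 to 91) sparse.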
